A study of Homo sapiens with 12 samples.

Results

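The primary (azurophil) granule genes of myeloid cells were described in THP-1 and U-937 acute myeloid leukemia (AML) cells by mRNA sequencing. The 10 members, chosen by name from the 36866 genes of the deposited table, are *ELANE*, *PRTN3*, *CTSG*, *AZU1*, *MPO*, *SRGN*, *LYZ*, *RNASE2*, *RNASE3* and *CST7*, and all 10 were found in it. Both are established monocytic cell lines with complex karyotypes, so that every comparison between them is a comparison of 1 line with 1 line. The 4 groups were DMSO-treated THP-1, honokiol-treated THP-1, DMSO-treated U-937 and honokiol-treated U-937 cells, with 0.1% DMSO in the controls, all for 24 h and with 3 libraries each. Honokiol is a biphenolic compound from magnolia bark whose action on AML cells the study examined. The labels list 20 and 35 μM honokiol without saying which line received which, so that line and dose cannot be told apart. The methods say in general that experiments were repeated, without saying whether the libraries of a group came from separate cultures, and the p-values measure only the spread between these libraries.

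Primary granules are lysosome-like stores that form at the promyelocyte stage of neutrophil and monocyte development and are later emptied into the phagosome. They hold serine proteases, the peroxidase MPO and antimicrobial proteins, packed on the chondroitin sulfate chains of serglycin. Their genes are transcribed in a narrow window of maturation under PU.1, the C/EBP factors, MYB and RUNX1, and are shut off when the cells mature. RNASE2 and RNASE3 belong to eosinophil granules, lysozyme to all granule classes and to monocytes, and cystatin F, the product of *CST7*, to the endosomes and granules of several leukocytes.

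Estimated counts summed to between 57406966 and 75065752 per library. Mitochondrially encoded genes took 12.6% and 13.7% of the counts in DMSO replicate 1 of U-937 and of THP-1. In the other 10 libraries they took 5.61% to 7.55%. Without DMSO replicate 1 of both lines, 9 of the 10 genes were likewise called between the lines with DMSO. The 9 include *MPO*, which held only 15 to 30 estimated counts in U-937 with DMSO. The 9 monocytic and myeloid markers examined (among them *CD33*, *SPI1* and *CD68*) each reached an FPKM of 0.5 in some library of every group. The T cell and erythroid markers in the table stayed below that value in every library, while their sums reached at most 0.25 and 0.31 FPKM.

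FPKM, fragments scaled to transcript length and to the mapped fragments of the library, allows genes to be compared per length. The 10 genes together took 2.10% to 3.34% of the summed FPKM of a library in THP-1 and 0.561% to 1.16% in U-937. In THP-1 cells treated with DMSO, *SRGN* was the highest (2803 ± 309 FPKM, mean ± SD, n = 3), and its mean was 11th among all genes. It was followed by *CTSG* (1991 ± 317), *ELANE* (1525 ± 617), *PRTN3* (982 ± 245) and *AZU1* (501 ± 179). The libraries of *CTSG* and *ELANE*, and those of *ELANE* and *PRTN3*, overlapped, whereas *AZU1* lay below *PRTN3* without overlap. *RNASE2* (162 ± 65.4) and *LYZ* (121 ± 21.5) overlapped each other, and *MPO* (30.1 ± 6.17), *CST7* (12.2 ± 0.410) and *RNASE3* (5.98 ± 2.72) came last, each below the one before in all 3 libraries.

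In U-937 cells treated with DMSO the order was another one. *CST7* was the highest (621 ± 146 FPKM), followed by *LYZ* (489 ± 176), *ELANE* (432 ± 147), *SRGN* (432 ± 126), *PRTN3* (282 ± 78.6), *CTSG* (205 ± 20.5) and *RNASE2* (199 ± 54.3), and each of these overlapped its neighbour in the order. *AZU1* (113 ± 28.4) lay below *RNASE2* without overlap and overlapped *RNASE3* (84.8 ± 25.7). *MPO* was at 0.0833 ± 0.0208 FPKM, at 15 to 30 estimated counts per library.

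**Figure D1:**
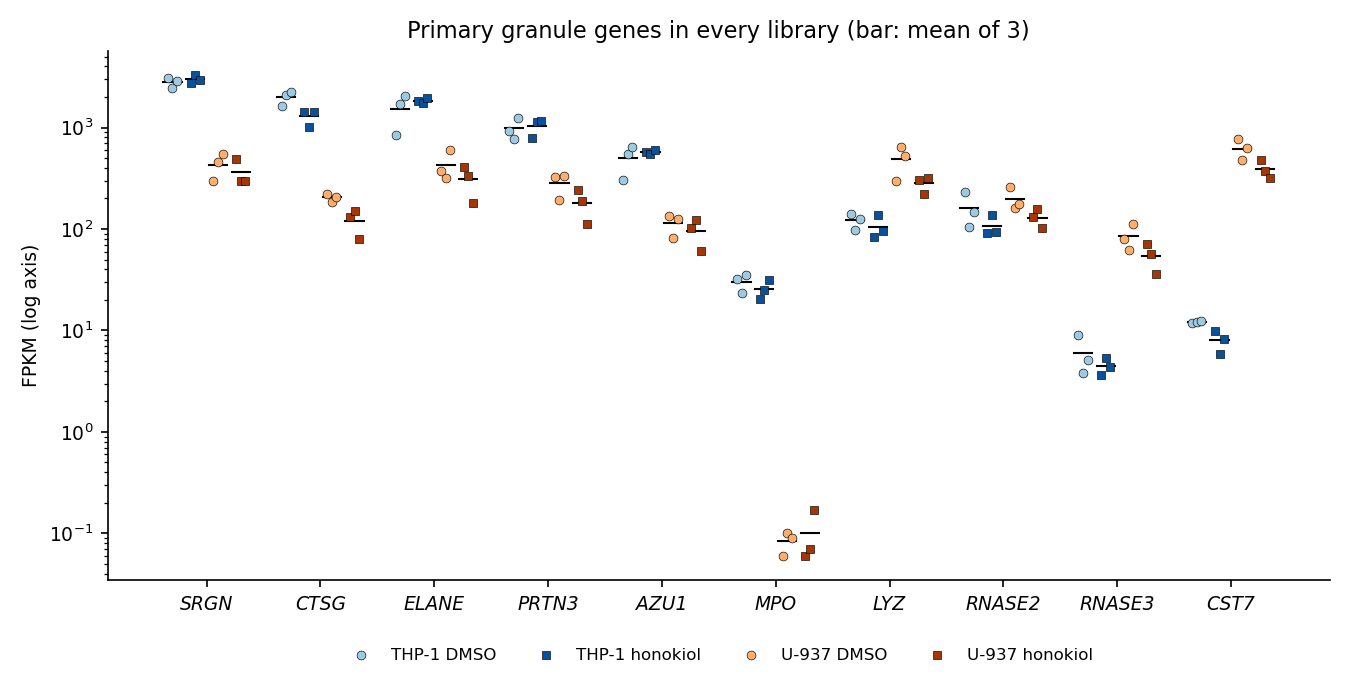
FPKM of the 10 primary granule genes in each of the 12 libraries on a log axis, with circles for DMSO, squares for honokiol, blue for THP-1 and orange to brown for U-937, and a bar for the mean of 3 libraries. *SRGN*, the 4 serine protease family genes and *MPO* are lower in all U-937 libraries than in all THP-1 libraries, *LYZ*, *RNASE3* and *CST7* are higher, and *RNASE2* overlaps.

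The first comparison asks how the lines differ without honokiol. Of the 10 genes, 6 were lower in U-937 and 3 were higher, and *RNASE2* did not pass the test. The differences ran from 355-fold lower for *MPO* to 49.7-fold higher for *CST7*. A differentially expressed gene (DEG) had a Benjamini-Hochberg adjusted p-value under 0.05 in edgeR's quasi-likelihood test and an absolute log2 fold change over 1. Among all 16283 genes tested 34.0% were DEGs between the lines (14.4% higher and 19.7% lower in U-937), so that a DEG between these lines was frequent. *MPO* passed the limit on low values only through THP-1, which leaves 8 DEGs among the 9 other genes. In bulk RNA, fewer cells expressing a gene and less RNA per cell cannot be told apart.

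Neutrophil elastase (*ELANE*), proteinase 3 (*PRTN3*) and cathepsin G (*CTSG*) are the serine proteases of the granule, and *AZU1* encodes azurocidin, a relative without protease activity that kills bacteria. *CTSG* was at 1631, 2117 and 2226 FPKM in the 3 DMSO libraries of THP-1 and at 223, 183 and 208 FPKM in those of U-937. No U-937 library came near a THP-1 library, and the difference was 9.97-fold (log2 fold change −3.32 ± 0.24 SE, edgeR adjusted p = 5.63e-07). Its neighbours on chromosome 14, *CMA1* and *GZMH*, stayed under the limit on low values and were not tested. *ELANE* was at 836, 1714 and 2025 FPKM in THP-1 and at 376, 321 and 599.6 FPKM in U-937. Its lowest THP-1 library, DMSO replicate 1, was the one with the higher mitochondrial share, and still lay above every U-937 library (log2 fold change −1.85 ± 0.34, adjusted p = 0.000582). *PRTN3* was at 927, 769.65 and 1249 FPKM in THP-1 and at 325, 192 and 330.0 FPKM in U-937, a log2 fold change of −1.84 ± 0.30 (adjusted p = 0.000295). *AZU1* was at 302, 550.5 and 650.01 FPKM in THP-1 and at 133, 80.9 and 126 FPKM in U-937, a log2 fold change of −2.17 ± 0.30 (adjusted p = 6.87e-05). The 4 genes were thus all lower in U-937, each without overlap, as were 29.0% of all genes tested, while 27.7% were higher without overlap.

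*ELANE*, *PRTN3* and *AZU1* lie side by side on chromosome 19 of GRCh38, on the plus strand, within 31150 bases. *AZU1* spans 825097 to 832018, *PRTN3* 840999 to 848175 and *ELANE* 851014 to 856247 in the deposited coordinates. The next protein-coding genes outward, *PLPPR3* and *CFD*, were lower in U-937 as well. *PLPPR3*, a phospholipid phosphatase relative, was at 85.3 FPKM on average in THP-1 and 13.2 FPKM in U-937 with DMSO (log2 fold change −2.72, adjusted p = 1.41e-05). *CFD*, which encodes the complement protease factor D, was at 132 and 25.1 FPKM (log2 fold change −2.41, adjusted p = 4.80e-05). The genes 1 position further out were not DEGs. *PTBP1*, a splicing regulator, was at 28.7 FPKM in THP-1 and 41.7 FPKM in U-937 (log2 fold change 0.50, adjusted p = 0.0536), and *MED16*, a subunit of the Mediator complex, at 12.01 and 16.0 FPKM (log2 fold change 0.36, adjusted p = 0.0680).

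**Figure D2:**
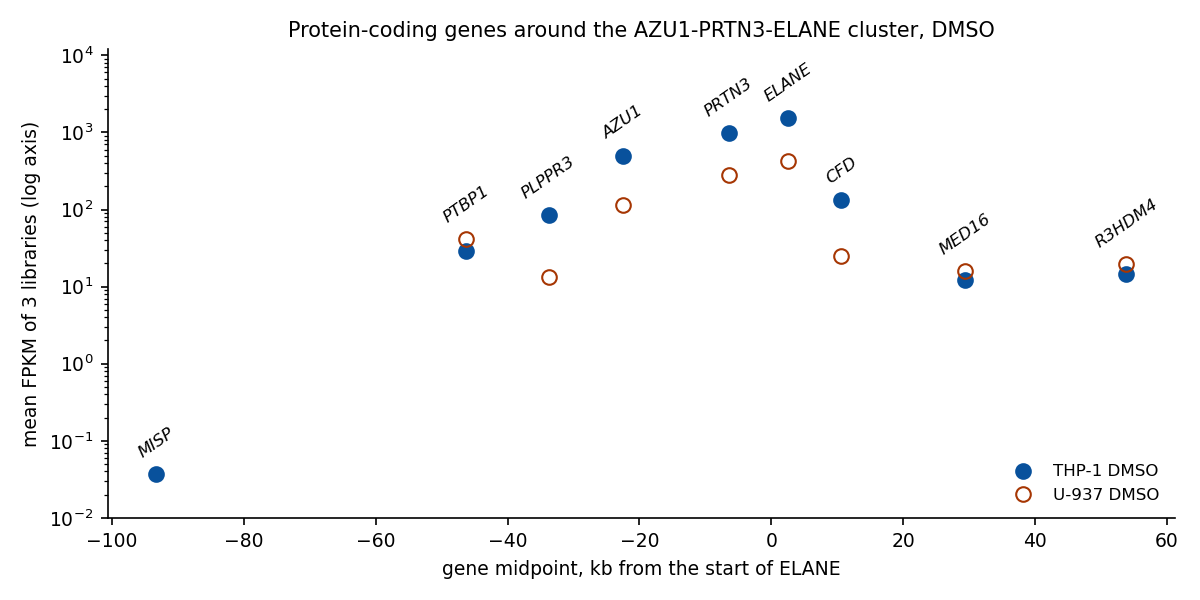
Mean FPKM of 3 DMSO libraries on a log axis against the distance of each protein-coding gene's midpoint from the start of *ELANE* in kb, with filled blue circles for THP-1 and open brown circles for U-937. The 5 genes from *PLPPR3* to *CFD* lie lower in U-937, and *PTBP1*, *MED16* and *R3HDM4* do not. *MISP* was listed at 0 in all 3 U-937 libraries and has no brown circle.

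RefSeq start regions (GRCh38.p14) were used for 5 of the 10 genes (*AZU1*, *PRTN3*, *CTSG*, *RNASE2* and *RNASE3*), and those of the other 5 were not analysed here. Those of *AZU1* and *PRTN3*, neighbours that were lower in U-937 together, are shown 5′ to 3′ on their own strand, without the bases that GENCODE 29 counts as exon. Capitals mark matches to the C/EBP letters TTGCNNAA and to the PU.1 letters GAGGAAG, searched on both strands.
AZU1, chr19:827587-827835: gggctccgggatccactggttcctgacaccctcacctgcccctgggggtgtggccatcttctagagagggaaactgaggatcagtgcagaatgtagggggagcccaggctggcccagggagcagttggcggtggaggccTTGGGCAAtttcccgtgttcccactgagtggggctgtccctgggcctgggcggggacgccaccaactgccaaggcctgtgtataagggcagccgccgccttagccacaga
PRTN3, chr19:840749-840959: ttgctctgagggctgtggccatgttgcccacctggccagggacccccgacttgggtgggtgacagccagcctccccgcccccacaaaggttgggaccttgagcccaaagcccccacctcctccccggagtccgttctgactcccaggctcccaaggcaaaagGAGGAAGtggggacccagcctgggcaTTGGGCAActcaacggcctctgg
The region of *AZU1* lies inside the deposited span of the gene, which starts at 825097, before the RefSeq start used here. Both regions hold the same match to the C/EBP letters, TTGGGCAA, 111 to 104 bases before the RefSeq start of *AZU1* and 62 to 55 bases before that of *PRTN3*. Over the 250 bases before the start, the C/EBP letters were found in 4 of the 5 regions and in 9.13% of all 27305 start regions. The PU.1 letters were found in 2 of the 5 (*CTSG* and *PRTN3*) and in 11.05% of all, the MYB letters CAACNG in 4 of the 5 and in 27.2% of all, and the RUNX letters TGTGGT in 0 of the 5 and in 10.9% of all. These counts describe letters in a window and not bound sites. *RNASE2* and *RNASE3* are among the 4 regions for both the C/EBP and the MYB letters. Their start regions are closely alike, so their matches are not independent.

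Myeloperoxidase, the product of *MPO*, makes hypochlorous acid from hydrogen peroxide. *MPO* was at 31.8, 23.3 and 35.3 FPKM in the DMSO libraries of THP-1 and at 0.06, 0.1 and 0.09 FPKM in those of U-937. The U-937 libraries were therefore close to the lower end of what was listed, at 15, 30 and 26 estimated counts, and the 355-fold difference (log2 fold change −8.47 ± 0.41, adjusted p = 3.05e-08) is imprecise. On the log2(FPKM + 1) scale, which damps low values, it was −4.83. *MPO* lies on chromosome 17 between *LPO* and *TSPOAP1*, and both neighbours were lower in U-937 as well, having like *MPO* passed the limit on low values only through THP-1. *LPO*, which encodes the related lactoperoxidase and may share reads with *MPO*, averaged 4.77 FPKM in THP-1 and 0.0100 FPKM in U-937, and *TSPOAP1* 8.92 and 0.110 FPKM (log2 fold changes −8.94 and −6.37, adjusted p = 4.60e-06 and 3.18e-06).

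Serglycin, the product of *SRGN*, is the proteoglycan whose negative charges hold the basic proteases in the granule. It was at 3065, 2462 and 2881 FPKM in the DMSO libraries of THP-1 and at 295, 456 and 544 FPKM in those of U-937. The groups were far apart (log2 fold change −2.76 ± 0.25, adjusted p = 2.65e-06), 6.79-fold lower in U-937. The neighbours of *SRGN* on chromosome 10, *KIF1BP* and *VPS26A*, were not DEGs (log2 fold changes −0.44 and 0.07).

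Lysozyme (*LYZ*) cleaves the peptidoglycan of bacteria. It was at 141, 98.3 and 125 FPKM in the DMSO libraries of THP-1 and at 298, 645 and 525 FPKM in those of U-937. All U-937 libraries lay above all THP-1 libraries (log2 fold change 1.95 ± 0.28, adjusted p = 0.000116). The neighbours of *LYZ* on chromosome 12 were not higher with it. *YEATS4* was a DEG in the opposite direction, at 14.9 FPKM in THP-1 and 6.73 FPKM in U-937 (log2 fold change −1.19, edgeR adjusted p = 0.000147). *CPSF6* was not a DEG (log2 fold change 0.20). An antisense gene overlaps *LYZ*, and reads of the pair could be told apart only if strand was used, which is not given in the sources used here.

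*CST7* encodes cystatin F, an inhibitor of cysteine cathepsins that restrains the activation of granule proteases by cathepsin C. It was at 11.7, 12.2 and 12.5 FPKM in the DMSO libraries of THP-1, the tightest of the 10 genes, and at 767, 476 and 622 FPKM in those of U-937. This was the largest difference upward among the 10 genes, at 49.7-fold (95% interval 32.8 to 75.2, log2 fold change 5.63 ± 0.27, adjusted p = 3.05e-08). Its nearest neighbour on chromosome 20, *APMAP*, was also higher in U-937, at 129.6 against 41.3 FPKM on average (log2 fold change 1.61, adjusted p = 2.36e-05).

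*RNASE2* (eosinophil-derived neurotoxin) and *RNASE3* (eosinophil cationic protein) are a recently duplicated gene pair on chromosome 14, 63139 bases apart, that encode antiviral and antibacterial ribonucleases. *RNASE2* was at 234, 106 and 146 FPKM in the DMSO libraries of THP-1 and at 261, 161 and 175 FPKM in those of U-937. These ranges overlapped, and the log2 fold change was 0.24 with a 95% interval of −0.45 to 0.94 (adjusted p = 0.549). *RNASE3* was at 9.04, 3.81 and 5.1 FPKM in THP-1 and at 79.7, 62.0 and 113 FPKM in U-937, 13.4-fold higher (log2 fold change 3.74 ± 0.39, adjusted p = 8.09e-06). The ratio of *RNASE2* to *RNASE3* was therefore 21.7 to 28.6 in the 6 THP-1 libraries of both treatments and 1.56 to 3.28 in the 6 U-937 libraries. Of the outer neighbours of the pair, *METTL17* was not a DEG (log2 fold change 0.08) and *RNASE1* was not tested.

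The start regions of the pair are shown because the lines differed in *RNASE3* so much more than in *RNASE2*. Capitals mark the match to the C/EBP letters TTGCNNAA.
RNASE2, chr14:20955237-20955451: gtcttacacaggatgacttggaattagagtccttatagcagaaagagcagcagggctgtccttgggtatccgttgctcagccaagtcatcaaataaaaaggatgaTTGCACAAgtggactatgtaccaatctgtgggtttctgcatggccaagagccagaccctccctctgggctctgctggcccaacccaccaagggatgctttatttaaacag
RNASE3, chr14:20891135-20891384: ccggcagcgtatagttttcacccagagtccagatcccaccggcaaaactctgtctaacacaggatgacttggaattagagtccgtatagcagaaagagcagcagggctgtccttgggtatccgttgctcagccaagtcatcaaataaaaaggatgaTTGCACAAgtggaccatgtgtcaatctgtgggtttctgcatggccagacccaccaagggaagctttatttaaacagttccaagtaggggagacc
Of the 250 bases before each start, 199 were aligned and 193 of these were identical (97.0%), with an exact stretch of 86 bases. Bases opposite a gap were left out of this share. Both regions hold the match TTGCACAA, 145 to 138 bases before the start of *RNASE2* and 94 to 87 bases before that of *RNASE3*. Between this match and the shared tttatttaaacag, the region of *RNASE2* holds a stretch that the region of *RNASE3* lacks. The transcripts themselves were identical at 645 of 717 aligned bases (90.0%), with the longest exact stretch at 67 bases. Fragments within such stretches could have been given to either gene, and how the authors counted them is not given in the sources used here, so that the levels of the pair are uncertain.

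**Figure D3:**
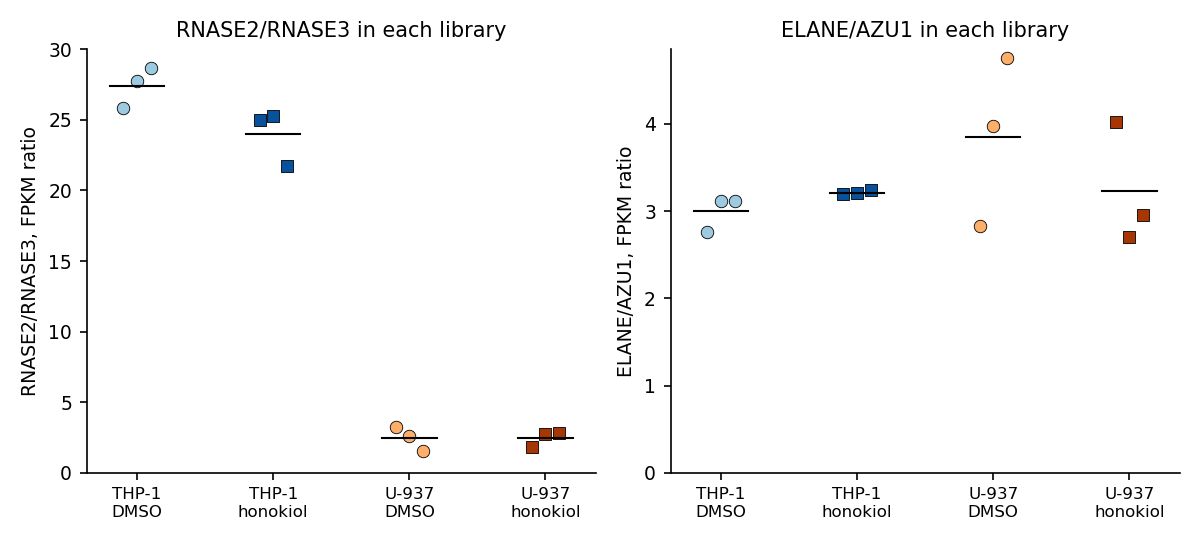
Ratio of FPKM values in each library (points) with the mean of 3 libraries (bar), for *RNASE2* over *RNASE3* on the left and *ELANE* over *AZU1* on the right, both axes starting at 0. The left ratio is 21.7 to 28.6 in THP-1 and 1.56 to 3.28 in U-937, while the right ratio overlaps between the lines, at 2.77 to 3.24 and 2.71 to 4.75.

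The ratio of *ELANE* to *AZU1* stayed within 2.77 and 3.24 in THP-1, including DMSO replicate 1, in which both genes were at their lowest of the line. In that library the 10 genes took 2.10% of all summed FPKM. Of the summed FPKM of genes that are not mitochondrially encoded they took 3.87%, among the shares of the other THP-1 libraries (3.67% to 4.42%). This sum does not show the 2 genes. In DMSO replicates 1 and 2, *ELANE* was at 63188 and 130466 estimated counts and *AZU1* at 39585 and 72647. The totals of these libraries were 62946928 and 62652199.

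The lines were also compared under honokiol. The 9 genes that were DEGs with DMSO were DEGs in the same direction with honokiol, where 32.2% of all genes tested were DEGs (13.8% higher and 18.5% lower in U-937). *CST7* was 45.8-fold higher in U-937 and *RNASE3* 11.5-fold higher, and *LYZ* was 2.53-fold higher (log2 fold change 1.34 ± 0.28, edgeR adjusted p = 0.00170). *CTSG* was 11.4-fold lower, *SRGN* 8.84-fold, *AZU1* 6.42-fold, *ELANE* 6.39-fold and *PRTN3* 6.07-fold. *MPO* was at 0.06, 0.07 and 0.17 FPKM in the U-937 libraries against 20.2, 25.2 and 31.45 FPKM in the THP-1 libraries. It counts among the 9 but passed the limit on low values only through THP-1. *RNASE2* again did not differ past the threshold (log2 fold change 0.18, 95% interval −0.51 to 0.87, adjusted p = 0.667).

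**Figure D4:**
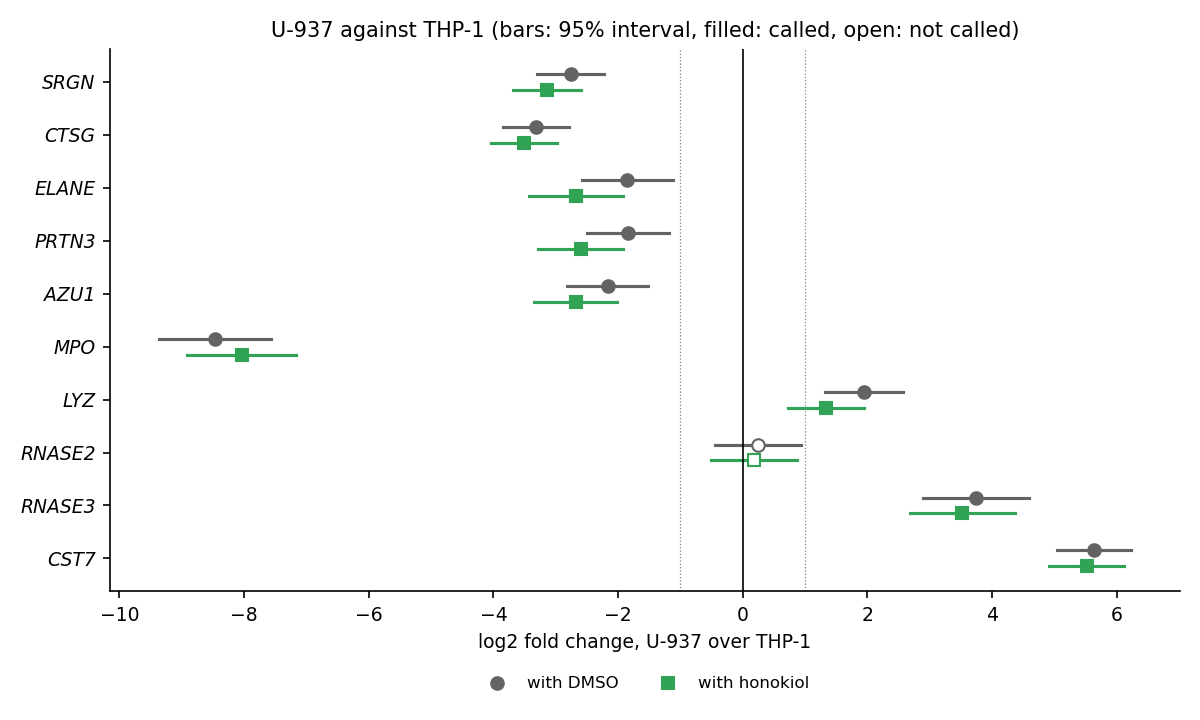
Log2 fold change of U-937 over THP-1 for each gene with its 95% interval, with grey circles for DMSO and green squares for honokiol, filled for DEGs and open for *RNASE2*, and dotted lines at −1 and 1. *CST7* stands at 5.63 and 5.52, *MPO* at −8.47 and −8.04, and the intervals of *RNASE2* cross 0.

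In THP-1 cells honokiol was compared with DMSO, and no granule gene was a DEG. *CTSG* and *CST7* were the 2 genes with an unadjusted p-value under 0.05 in edgeR, both lower with honokiol. Honokiol left few DEGs in the whole table by this test, 0.0411% of 14600 genes, while 13.1% had an unadjusted p under 0.05 (6.22% lower). DESeq2 also called none at a log2 fold change over 1 and gave 1 of the 10 genes an adjusted p under 0.05.

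*CTSG* was at 1631, 2117 and 2226 FPKM with DMSO and at 1437, 1004 and 1427 FPKM with honokiol. Every honokiol library lay below every DMSO library, at a log2 fold change of −0.68 ± 0.19 (95% interval −1.11 to −0.24, adjusted p = 0.238). *CST7* was at 11.7, 12.2 and 12.5 FPKM with DMSO and at 9.86, 5.88 and 8.21 FPKM with honokiol, again without overlap (log2 fold change −0.66 ± 0.23, adjusted p = 0.301). An absence of overlap with lower values under honokiol was found for 7.62% of all genes tested.

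The other proteases did not share this pattern. *ELANE* was at 836, 1714 and 2025 FPKM with DMSO and at 1826, 1742 and 1961 FPKM with honokiol, so that DMSO replicate 1 stood apart from 5 similar libraries (log2 fold change 0.24, 95% interval −0.38 to 0.86). *AZU1* did the same, at 302, 550.5 and 650.01 FPKM with DMSO and at 572, 543 and 606 FPKM with honokiol (0.16, −0.38 to 0.70). Without DMSO replicate 1 these values were −0.029 and −0.075. *PRTN3* was at 785, 1136 and 1168 FPKM with honokiol, within the spread of DMSO (0.01, −0.51 to 0.53), and *SRGN* at 2749, 3311 and 2933 FPKM (0.04, −0.37 to 0.44).

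*MPO* was at 31.8, 23.3 and 35.3 FPKM with DMSO and at 20.2, 25.2 and 31.45 FPKM with honokiol, which overlapped (log2 fold change −0.30, 95% interval −0.79 to 0.20). *LYZ* was at 82.75, 136 and 95.7 FPKM with honokiol (−0.28, −0.81 to 0.26). *RNASE2* and *RNASE3* were both highest in DMSO replicate 1 (234 and 9.04 FPKM) and lowest in honokiol replicate 1 (90.5 and 3.62 FPKM), with log2 fold changes of −0.67 (−1.42 to 0.07) and −0.51 (−1.40 to 0.38).

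In U-937 cells no granule gene was a DEG with honokiol either (0.0947% of 13726 genes tested were), and *MPO* stayed under the limit on low values and was not tested. All 9 tested genes had a log2 fold change below 0, from −0.87 for *LYZ* to −0.33 for *SRGN*, with a median of −0.73 against 0.02 over all genes tested. In edgeR 6 of the 9 had an unadjusted p under 0.05 (*CTSG*, *CST7*, *LYZ*, *RNASE2*, *RNASE3* and *PRTN3*), all lower, against 8.44% of all genes tested with such a p and lower values and 16.7% in either direction. The genes are not independent of each other, since they are read from the same 6 libraries. DESeq2 called none at a log2 fold change over 1 and gave 3 of them an adjusted p under 0.05.

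*CTSG* was at 223, 183 and 208 FPKM with DMSO and at 131, 151 and 80.2 FPKM with honokiol. The groups did not overlap (log2 fold change −0.86 ± 0.23, 95% interval −1.38 to −0.34, edgeR adjusted p = 0.148). *RNASE2* was at 261, 161 and 175 FPKM with DMSO and at 130.5, 156 and 102 FPKM with honokiol, also without overlap (−0.73 ± 0.24, adjusted p = 0.211). Lower values under honokiol without overlap were found for 2 of the 9 genes and for 7.50% of all genes tested.

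*CST7* was at 767, 476 and 622 FPKM with DMSO and at 478, 374 and 317 FPKM with honokiol, which overlapped by a single pair of libraries (−0.77 ± 0.23, adjusted p = 0.179). *LYZ* was at 298, 645 and 525 FPKM with DMSO and at 307, 222 and 317 FPKM with honokiol. DMSO replicate 1 was the library of *LYZ* that overlapped (−0.87 ± 0.27, adjusted p = 0.189). *RNASE3* was at 79.7, 62.0 and 113 FPKM with DMSO and at 71.0, 57.2 and 35.8 FPKM with honokiol (−0.72 ± 0.28, adjusted p = 0.264).

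*PRTN3* was at 325, 192 and 330.0 FPKM with DMSO and at 241, 189 and 112 FPKM with honokiol (−0.74 ± 0.31, adjusted p = 0.285). *ELANE* was at 376, 321 and 599.6 FPKM with DMSO and at 409.8, 333 and 181 FPKM with honokiol (−0.58, 95% interval −1.31 to 0.16). For both genes the groups overlapped, and honokiol replicate 3 was the lowest library. *AZU1* was at 102, 123 and 61.4 FPKM with honokiol (−0.35, −0.998 to 0.30) and *SRGN* at 485, 298 and 299.6 FPKM (−0.33, −0.93 to 0.26). Honokiol replicate 3 was the lowest of the 6 U-937 libraries for 7 of the 9 genes, and without it 3 of them had an unadjusted p under 0.05. Its mitochondrial share of counts, 6.19%, was like that of the other honokiol libraries, and its part in the result was otherwise not tested.

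*CFD*, next to *ELANE*, had the opposite sign. It was at 22.8 to 27.6 FPKM with DMSO and at 36.1 to 43.5 FPKM with honokiol (log2 fold change 0.54, adjusted p = 0.144). *PLPPR3*, on the other side of the cluster, had a log2 fold change of −0.67 (adjusted p = 0.244).

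**Figure D5:**
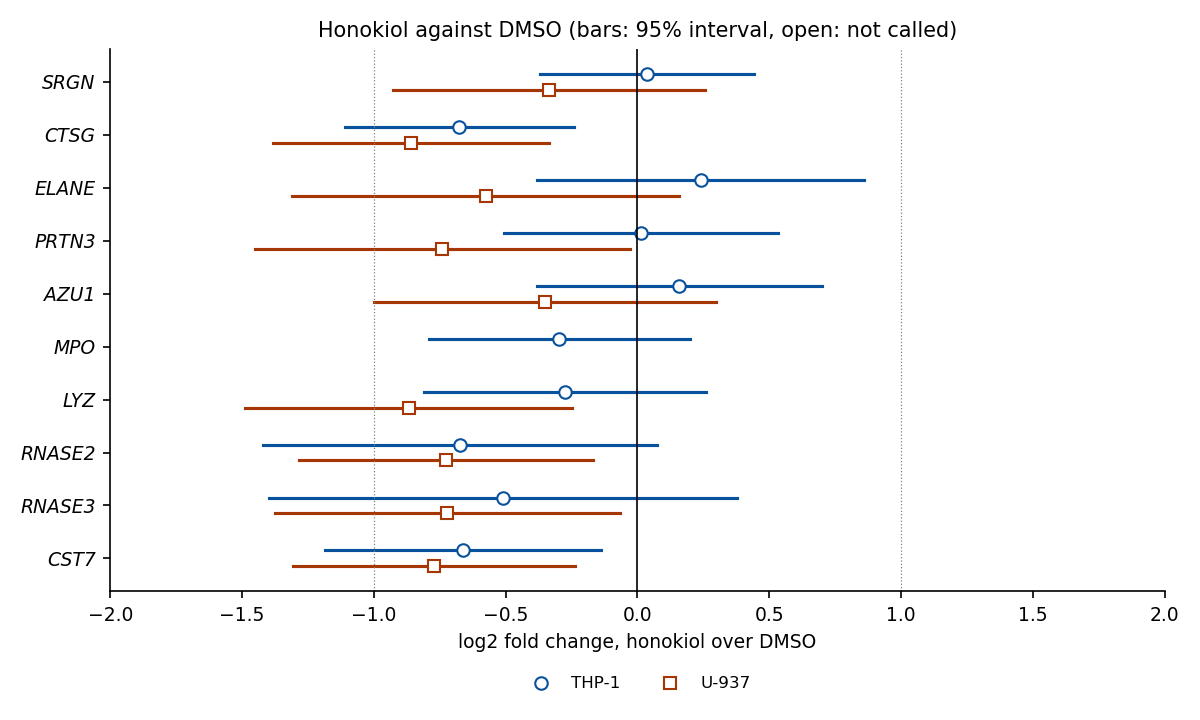
Log2 fold change of honokiol over DMSO for each gene with its 95% interval, with blue circles for THP-1 and brown squares for U-937, all open since none was a DEG, and dotted lines at −1 and 1. All 9 U-937 values lie below 0, from −0.87 to −0.33, the THP-1 values run from −0.68 to 0.24, and *MPO* was not tested in U-937.

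None of the 10 genes differed between the lines in its response past the threshold when the 12 libraries were fitted together in edgeR, and none had an unadjusted p under 0.05, where 0.111% of 16283 genes were called and 9.37% had such a p. DESeq2 gave none either, by both measures. *ELANE* had the widest gap, its log2 fold changes being 0.24 (THP-1) and −0.58 (U-937) (difference −0.82, 95% interval −1.83 to 0.18, adjusted p = 0.606). *PRTN3* followed (difference −0.76, −1.67 to 0.15, adjusted p = 0.601). For *CTSG*, *CST7* and *RNASE2* the 2 lines gave similar values, and the differences were −0.19 (−0.87 to 0.49), −0.12 (−0.82 to 0.58) and −0.06 (−1.04 to 0.92). These intervals are wide enough that a response of unequal size cannot be told from an equal one.

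Of 7 further genes of this granule, 6 were tested between the lines with DMSO. All 6 were DEGs lower in U-937, against 19.7% of all genes tested. Of the 6, *DEFA4*, *DEFA1* and *DEFA1B* were listed at 0 in every U-937 library and passed the limit only through THP-1. *CD63*, a tetraspanin of the granule membrane, was the highest of them, at 195 ± 49.0 FPKM in THP-1 and 63.1 ± 12.1 FPKM in U-937 (log2 fold change −1.66 ± 0.19, adjusted p = 1.73e-05). The alpha-defensin genes are near-identical copies whose reads can be split, so that their levels are uncertain. With honokiol none of the list had an unadjusted p under 0.05 in either line, 5 of 6 tested lying above 0 in THP-1 and 3 of 3 in U-937.

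Among all genes tested between the lines with DMSO, 14.4% were DEGs higher in U-937 and 19.7% DEGs lower. These shares also stand beside the lists below. Of 15 transcription factors listed, 14 were tested there. The log2 fold change was below 0 for 11 of them (3 DEGs) and above 0 for 3 (1 DEG). *CEBPD*, at 29.2 FPKM in THP-1 and 0.00667 FPKM in U-937, passed the limit on low values only through THP-1. *CEBPA*, which starts granulocytic and monocytic differentiation, was the highest (201 ± 78.9 FPKM in THP-1 and 139 ± 11.9 FPKM in U-937 with DMSO) and not a DEG (log2 fold change −0.56, adjusted p = 0.0502). *CEBPE*, a factor of the later granule stages, was the DEG that was higher in U-937 (7.65 ± 1.40 against 19.3 ± 4.89 FPKM, log2 fold change 1.303 ± 0.24, adjusted p = 0.000598). With honokiol none was a DEG. *MYB*, which keeps myeloid progenitors immature, was at 52.5 ± 14.02 FPKM with DMSO and 31.04 ± 6.79 FPKM with honokiol in THP-1 (log2 fold change −0.83 ± 0.26, adjusted p = 0.284), and at 42.6 ± 5.21 and 27.9 ± 5.50 FPKM in U-937 (−0.70 ± 0.17, adjusted p = 0.131). *RUNX1* had an unadjusted p under 0.05 in THP-1 (−0.55, adjusted p = 0.362) and *CEBPE* and *CEBPA* in U-937 (0.65 and −0.27, adjusted p = 0.243 and 0.294).

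Of 10 inhibitors of granule proteins, 8 were tested between the lines with DMSO. The log2 fold change was above 0 in U-937 for 5 (3 DEGs) and below 0 for 3 (2 DEGs). *SERPINB1*, which inhibits elastase, proteinase 3 and cathepsin G in the cytosol, was at 13.7 ± 1.80 FPKM in THP-1 and 52.6 ± 24.8 FPKM in U-937 with DMSO (log2 fold change 1.88 ± 0.29, adjusted p = 0.000160). In THP-1 its honokiol libraries averaged 21.6 ± 1.01 FPKM and did not overlap those with DMSO (0.60 ± 0.13, adjusted p = 0.162). *CSTA*, an inhibitor of cysteine cathepsins, was the highest of the list in THP-1 and lower in U-937 (67.9 ± 7.68 against 16.0 ± 3.29 FPKM, −2.12 ± 0.17, adjusted p = 1.35e-06).

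All 11 genes for the processing and sorting of granule proteins were tested. With DMSO the log2 fold change was above 0 in U-937 for 4 (1 DEG) and below 0 for 7 (1 DEG). *CALR*, the chaperone calreticulin, was the highest (889.7 ± 76.4 and 621 ± 131 FPKM with DMSO). *HAX1*, a gene mutated in congenital neutropenia, had an unadjusted p under 0.05 in both lines with honokiol, at log2 fold changes of 0.36 and 0.34 (adjusted p = 0.363 and 0.264). *AP3B1* and *VPS45* had one in U-937 (0.41 and 0.50). Of 11 genes that build the chondroitin sulfate chains of serglycin, 9 were tested. With DMSO the log2 fold change was above 0 in U-937 for 5 (3 DEGs) and below 0 for 4 (1 DEG). None of these genes was a DEG with honokiol. *CHST11*, a chondroitin sulfotransferase, averaged 21.2 ± 1.12 FPKM with DMSO and 15.9 ± 1.18 FPKM with honokiol in THP-1 (−0.47 ± 0.13, adjusted p = 0.229) and 8.63 ± 2.16 and 4.59 ± 0.787 FPKM in U-937 (−1.002 ± 0.22, adjusted p = 0.0995). *XYLT1*, which starts the chain, and *CHSY1*, which extends it, had an unadjusted p under 0.05 in U-937 (−0.64 and −0.58, adjusted p = 0.105 and 0.162).

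The phagocyte NADPH oxidase makes the superoxide from which the hydrogen peroxide used by MPO arises. All 6 subunit genes were tested, and 4 were DEGs lower in U-937 with DMSO. *RAC2* was the highest with DMSO, at 187 ± 29.2 FPKM in THP-1 and 82.4 ± 19.3 FPKM in U-937 (log2 fold change −1.23 ± 0.22, adjusted p = 0.000479), and its THP-1 libraries with honokiol averaged 116 ± 20.2 FPKM (−0.75 ± 0.20, adjusted p = 0.227). *CYBB*, the catalytic subunit, was at 31.1 ± 10.9 and 6.36 ± 2.37 FPKM with DMSO (−2.36 ± 0.34, adjusted p = 9.33e-05).

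For each granule gene at 1 FPKM or more on average in both lines, the gene with the highest Pearson r of log2(FPKM + 0.5) over the 12 libraries was found among those tested. The r were high for all 9, from 0.938 to 0.997. They are descriptions, since each was picked as the highest over all genes tested and the lines set most of them. The r within a line are those of the same picked gene. For *CTSG* it was *PLPPR3* (r = 0.987, and 0.880 within the THP-1 and 0.824 within the U-937 libraries). For *RNASE3* it was *AFF2* (0.993, 0.971 and 0.911) and for *ELANE* *TAB1* (0.990, 0.935 and 0.963). For *PRTN3* and *SRGN* it was *MARCKS* and *APP* (0.980 and 0.994), with 0.1903 and 0.182 within THP-1 and 0.946 and 0.915 within U-937. None of the 9 most similar genes was another granule gene of the list.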

How the data were processed

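Poly(A) RNA from both cell lines, with honokiol or DMSO, was sequenced in 12 libraries (3 per group). The authors deposited FPKM values, which correct for transcript length and sequencing depth, and estimated counts in whole numbers without normalization. The scale of these counts is not given in the sources used here. Of the values from 1 to 16, 4 was the most frequent (17264 entries), so that 1 count need not be 1 fragment. The submitters' processing notes name HISAT2 2.0, StringTie 1.3.0 and Bowtie 0.12.2, with no role given, and the mouse build mm8, although the coordinates are those of GRCh38, with 35298 of the 35762 genes found in GENCODE 29 starting within 5000 bases of it. Depth is given with the results.

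Genes with FPKM of at least 0.5 in at least 3 libraries (6 libraries per line for honokiol, 12 for line comparisons) were tested on the estimated counts with edgeR 4.0.16 (R 4.3.3), TMM normalization and the quasi-likelihood test, with Benjamini-Hochberg adjustment over all genes tested. DEGs followed the criterion of the study's methods, which name no test. With honokiol the study reported many more differentially expressed genes in each line than were called here, and the reason was not tested. On simulated counts with 200 changed genes, 93 of 100 with a log2 fold change of 2 and 100 of 100 with one of 3 were called with honokiol in THP-1, beside 18 false calls among 14600 genes. In U-937 94 and 98 of 100 were called, beside 28 false calls among 13726 genes. For the difference of response between the lines 65 and 88 of 100 were called, and for the lines with DMSO 86 and 92, beside 7 false calls each among 16283 genes. No smaller fold change was simulated, so these shares do not tell how often changes below a log2 fold change of 2 would be called. The changed genes were drawn only from those above a set mean count, and no other gene was changed. The limit on low values was not applied to the simulated counts. The shares therefore do not cover genes of low counts, nor data with as many changes as there were between the lines. With honokiol the data gave 6 calls in THP-1 and 13 in U-937, fewer than the simulated false calls. The granule genes and the other lists were chosen with earlier results of these data known. Named from each other list were up to 3 genes with an unadjusted p under 0.05 in either line, in order of p, and the gene with the highest mean FPKM, besides the nearest protein-coding genes beside each granule gene. Genes that this rule does not cover (*DEFA4*, *DEFA1*, *DEFA1B*, *CEBPD*, *MMP8*, *HP*, *PTBP1*, *MED16*, *R3HDM4*, *MISP*) were named after their values were seen. Alternatives covered DESeq2 1.42.0, limma-trend (limma 3.58.1), RLE size factors, the filter, the pseudocount, counts divided by 4, a replicate block, a joint fit of both lines and each replicate left out, and, added after seeing the data, DMSO replicate 1 of both lines left out. Raw reads were not used here. A marker list is not reported here.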

Additional observations from a re-analysis of the deposited data

How the results depend on the processing

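At an unadjusted p under 0.05 with any fold change, with honokiol 2 genes would be counted in THP-1 (instead of 0) and 6 in U-937 (instead of 0). Under every other setting 0 were called with honokiol in either line, or for the difference between the lines. Over the alternatives 3 to 8 of the tested genes had an unadjusted p under 0.05 in U-937 and 2 to 4 in THP-1, always lower, with the fewest in U-937 (3) without honokiol replicate 3, the most there (8) without honokiol replicate 1, and the most in THP-1 (4) without DMSO replicate 2. Between the lines 9 genes were called under every setting tried with either treatment, the replicate block included. Among the 9 was *MPO*, which passes the limit on low values only through THP-1. With the replicate block the calls over all genes moved from 5542 to 5437 with DMSO and from 5249 to 5144 with honokiol. They moved to 0 for honokiol in either line (from 6 in THP-1 and 13 in U-937) and for the difference of response (from 18). Within a line the replicate numbers did not pair the libraries: deviations from the group means correlated at -0.155 to 0.0936 between same-numbered DMSO and honokiol libraries. Between the lines, same-numbered libraries correlated at 0.0285 to 0.113 with DMSO and at -0.0332 to -0.0106 with honokiol. In neither comparison did every library correlate best with its own number. The DMSO values between the lines were small but all above 0, and DMSO replicate 1 of both lines had the higher mitochondrial share. Whether the numbers pair the DMSO libraries of the lines was not tested further. With each replicate left out, the log2 fold changes with honokiol in THP-1 ran from -0.029 to 0.47 for *ELANE*, -0.075 to 0.36 for *AZU1*, -0.15 to 0.19 for *PRTN3* and -0.071 to 0.16 for *SRGN*. The differences of response between the lines ran from -0.50 to 0.23 for *RNASE2*, -0.72 to 0.037 for *RNASE3*, -0.30 to 0.10 for *CST7*, -0.38 to 0.020 for *CTSG* and -0.21 to 0.71 for *MPO*, and *RNASE2* in U-937 against THP-1 with DMSO ran from -0.055 to 0.67. None of these was called in any of those fits. Without DMSO replicate 1 of both lines the difference of response was 0.081 for *CST7*. *MPO* between the lines ran from -8.66 to -4.83 with DMSO, where the U-937 libraries held 15 to 30 estimated counts.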

Other observations

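Proteins of other granules gave a mixed picture in these lines. Of 13 genes of specific and gelatinase granules, which form after the primary ones, 6 were tested between the lines with DMSO. The log2 fold change was above 0 in U-937 for 3 (2 DEGs) and below 0 for 3 (1 DEG). Of the 3 above 0, *MMP8* and *HP* passed the limit on low values only through U-937. In THP-1 they reached at most 0.18 and 0.49 FPKM. Over all genes tested, 14.4% were DEGs higher in U-937 and 19.7% DEGs lower. The lower DEG of the list was *CHI3L1*, a chitinase-like protein, at 623 ± 104 FPKM in THP-1 and 35.8 ± 16.9 FPKM in U-937 (log2 fold change -4.15 ± 0.42, edgeR adjusted p = 6.40e-06). *PTX3*, a pentraxin, was higher in U-937 (1.57 ± 0.605 against 3.91 ± 1.82 FPKM, adjusted p = 0.0433). Of 8 lymphocyte granule genes only 2 passed the limit, and *NKG7*, a membrane protein of cytotoxic granules, was at 15.6 ± 5.31 FPKM in THP-1 and 148 ± 13.5 FPKM in U-937 (log2 fold change 3.21 ± 0.25, adjusted p = 7.78e-07).

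In the RNase A family, *RNASE6* was at 2.63 ± 0.637 FPKM with DMSO and 0.677 ± 0.130 FPKM with honokiol in THP-1 (log2 fold change -2.01 ± 0.36, adjusted p = 0.124), and its log2 fold change was -1.18 ± 0.42 in U-937 (adjusted p = 0.231). *ANG*, angiogenin, was at 0.297 ± 0.0971 FPKM with DMSO and 1.32 ± 0.361 FPKM with honokiol in U-937 (2.05 ± 0.39, adjusted p = 0.0803), and *RNASE4*, which shares its first exons and may share its reads, at 0.607 ± 0.162 and 1.52 ± 0.565 FPKM (1.23 ± 0.39, adjusted p = 0.197). In U-937 *ANG* passed the limit on low values only through the honokiol libraries. Its DMSO libraries there reached at most 0.38 FPKM. Among the 9 myeloid markers, the log2 fold change with DMSO was below 0 in U-937 for 8 (7 DEGs) and above 0 for 1 (a DEG). *CD68* was the highest of them in THP-1 (193 ± 112 against 39.9 ± 6.32 FPKM, log2 fold change -2.34 ± 0.38, adjusted p = 0.000258), and *CSF1R*, the receptor of macrophage colony-stimulating factor, was at 41.6 ± 9.80 against 1.66 ± 0.423 FPKM (-4.68 ± 0.30, adjusted p = 2.55e-07). With honokiol the log2 fold change of *CD14* was 1.16 ± 0.32 in THP-1 and that of *ITGAM* 0.70 ± 0.21 in U-937 (adjusted p = 0.228 and 0.175). Of the markers of cells outside the blood, *KRT8* and *PDGFRB* were at 0.653 ± 0.196 and 2.77 ± 0.956 FPKM in THP-1 with DMSO and at 0.05 ± 0.01 and 0.0600 ± 0.0436 FPKM in U-937.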
